A study of Homo sapiens with 15 samples.

Results

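The zinc finger genes of chromosome 19 were followed in IGROV-CP20 cells, a cisplatin-resistant human ovarian cancer line, by QuantSeq, which counts reads from the 3′ ends of polyadenylated RNA. The members were the protein-coding genes of chromosome 19 whose symbol is ZNF or ZFP followed by a number, with ZFP36 left out, and 250 genes met this rule in GENCODE 29. Of these, 248 had an identifier in the tables of 47634 genes, 221 had at least 1 read and 140 passed the filter on low counts among the 11113 genes tested. The other 81 members with reads were too sparse to test, and 27 members had 0 reads in every library. None of the 140 passed the filter through libraries of 1 condition alone, and 86 had a library above its cutoff of 4.26 CPM (counts scaled to the size of the library) in each of the 5 conditions. The set was put together because ZFP82 was low with amphotericin B, so the values of amphotericin B against cisplatin are a description. The numbers of members past the threshold in that contrast are printed there beside those of all genes and are not read as a test.

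The study asked how 3 approved drugs that make these cells more sensitive to cisplatin change gene expression. There were 15 libraries, 3 labelled as biological replicates for each of 5 conditions. Untreated cells received neither agent, and a second group received 50 µM cisplatin for 24 h. In the remaining groups 1 drug, tranilast, telmisartan or amphotericin B, was given at 10 µM for 24 h before the same cisplatin treatment, so the 3 drug groups share cisplatin and no group received a drug alone. All groups are the same cell line, which is a single selected line and not a panel of tumors.

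Zinc finger proteins of this family bind DNA through strings of C2H2 fingers, each of which reads a few bases. Most of them also carry a KRAB domain at the amino terminus, which recruits TRIM28 and, through it, enzymes that methylate histones and compact chromatin. Their genes arose by repeated duplication and stand in long clusters on chromosome 19. They are known for silencing transposable elements, and as a class for mRNAs with short half-lives.

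Sequence features were counted in the longest coding sequence of each gene in GENCODE 29. Among the 248 members the median number of fingers matching C-x2-4-C-x12-H-x3-5-H was 12.5, against 9 in 268 zinc finger genes on other chromosomes. The core of the KRAB A box was found in 204 members, or 82.3%, and in 110 of those 268 genes, or 41.0%. ZFP82 encodes 532 residues with 12 such fingers and a KRAB core. The members tested had a median 3′ untranslated GC content of 40.4%, against 42.2% for all 10041 protein-coding genes tested.

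ZFP82 (ENSG00000181007) lies on the minus strand of chromosome 19 at chr19:36383120-36418656 of GRCh38. The 250 bases upstream of its RefSeq start, chr19:36418645-36418894 on the minus strand of GRCh38.p14, are shown because the set was chosen for this gene, with 1 match to the NRF1 motif in capitals. The motif was searched on both strands.
ZFP82: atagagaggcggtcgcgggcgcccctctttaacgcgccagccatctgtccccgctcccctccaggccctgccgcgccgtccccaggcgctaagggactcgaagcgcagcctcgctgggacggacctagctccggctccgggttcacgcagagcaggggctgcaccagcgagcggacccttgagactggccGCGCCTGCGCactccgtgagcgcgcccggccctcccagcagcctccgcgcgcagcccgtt
This stretch is 73.2% G or C and holds 31 CpG pairs. The motif was found, on either strand, in 9.77% of 266 upstream stretches of members and in 6.57% of 21021 stretches of all protein-coding genes. A match in letters is a description and not a bound site.

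Libraries held 1510620 to 3517041 counts. A floor of 3 reads stood for 0.673 to 2.39 CPM, which covers counting error only. Reads of mitochondrial genes took 4.11% to 5.57% of the counts in untreated cells, 18.3%, 11.02% and 7.02% in cisplatin replicates 1 to 3, 5.44% to 6.25% with tranilast, 14.5%, 16.9% and 7.73% in telmisartan replicates 1 to 3, and 16.4% to 20.7% with amphotericin B. Cisplatin replicate 1 and telmisartan replicate 3 stood apart from the other libraries of their groups, with a chi-square per degree of freedom of 26.4 to 44.1 over genes in the pairs that contain them. It was 8.07 between cisplatin replicates 2 and 3 and 2.24 to 5.06 in every other pair. Of the epithelial markers, EPCAM was at 11.2 to 43.2 CPM and KRT18 at 83.5 to 208 CPM, while PAX8, KRT7, MUC16 and WT1 had no library above 3.19 CPM. Of the other cell types, CD3E and VWF had no reads, and PTPRC, the leukocyte gene CD45, was at 64.1 to 74.9 CPM in untreated cells and 2.44 to 22.0 CPM in all other libraries. Of the stromal genes, COL1A1 was at 6.34 to 8.58 CPM in untreated cells and 11.2 to 32.6 CPM in the others, COL3A1 at 10.8 to 12.9 and 2.93 to 11.3 CPM, and DCN and LUM at no more than 2.23 CPM.

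The summed level of the members, scaled by TMM factors, was 2735, 2798 and 2804 CPM in untreated cells and 2730, 3824 and 3753 CPM with cisplatin. It was 3042, 3009 and 2891 CPM with tranilast, 2551, 2542 and 3274 CPM with telmisartan, and 2545, 2446 and 2084 CPM with amphotericin B. The 3 amphotericin B libraries lay below the 12 others except telmisartan replicate 2, which amphotericin B replicate 1 exceeded by a few CPM. This order rests in part on ZNF428, at 567.5 to 1119 CPM. Without it the sum was 1611 CPM in cisplatin replicate 1 and 1657 CPM in telmisartan replicate 2, against 1613, 1686 and 1433 CPM with amphotericin B, so that the groups overlapped. The low cisplatin library and the low telmisartan libraries are those with the high mitochondrial share, and the part of that share in the sums was not tested. In bulk RNA, fewer reads from these genes because of less RNA per cell or because of fewer cells that express them cannot be told apart.

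**Figure D1:**
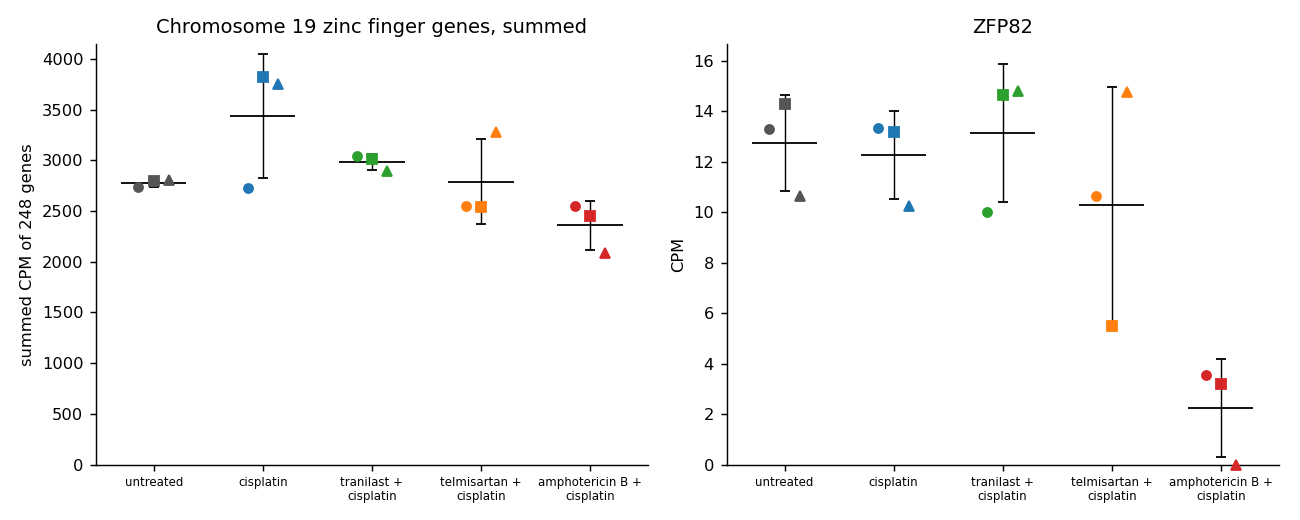
Summed CPM of the 248 members (left) and CPM of ZFP82 (right) in each library, by condition. Circles, squares and triangles are replicates 1, 2 and 3, and bars are the mean and SD of 3 libraries. ZFP82 was at 0 to 3.54 CPM in the amphotericin B libraries and at 5.49 to 14.8 CPM in the others.

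ZFP82 itself was measured at a low level. Its 3 untreated libraries were at 13.3, 14.3 and 10.6 CPM, or 42, 50 and 42 reads. With cisplatin it was at 13.4, 13.2 and 10.3 CPM, and with tranilast at 9.99, 14.6 and 14.8 CPM. The telmisartan libraries were spread wider, at 10.7, 5.49 and 14.8 CPM. The amphotericin B libraries were at 3.54, 3.19 and 0.00 CPM, or 5, 4 and 0 reads, and did not overlap with any other group. By the means, amphotericin B with 2.24 ± 1.95 CPM (SD, n = 3) came after telmisartan with 10.3 ± 4.65 CPM, and untreated cells, cisplatin and tranilast, with 12.8 ± 1.90, 12.3 ± 1.73 and 13.1 ± 2.73 CPM, did not differ beyond their spread. The log2 difference of amphotericin B from cisplatin was -2.42 (SE 0.55), and -1.80 without amphotericin B replicate 3, which had no read. The gene was chosen for this difference, so it carries no test. Where neither group entered that choice, edgeR gave a log2 fold change of 0.06 (SE 0.35, adjusted p = 0.953) for tranilast against untreated cells and -0.24 (SE 0.37, adjusted p = 0.648) for telmisartan against untreated cells.

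The first comparison asked what cisplatin does on its own. Of the 139 members tested other than ZFP82, 25 rose and 5 fell with cisplatin (edgeR quasi-likelihood test, Benjamini-Hochberg adjusted p under 0.05 over all genes). Of all genes tested, 21.1% rose and 23.6% fell, so the share of members that rose, 18.0%, was near that of all genes, and the share that fell was 3.60%. The median log2 fold change of the members was 0.31, against -0.01 for all genes, 0.32 for 641 other protein-coding genes of chromosome 19 and 0.08 for 177 zinc finger genes on other chromosomes. Of the chromosome 19 genes that are not members, 31.7% rose and 10.8% fell. With library size as the only scaling the log2 fold change of the median gene moved to -0.36. Then 7 members rose and 4 fell, or 5.04% and 2.88%, where 9.22% and 30.1% of all genes did. Without cisplatin replicate 1, 37 members rose and 1 fell, where 20.7% and 24.5% of all genes did. Without cisplatin replicate 2, 11 rose and 2 fell, where 14.9% and 16.8% of all genes did.

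The 3 members with the largest rises kept their calls in all 22 other fits. ZNF530, a KRAB protein gene in the cluster at the end of the long arm, was at 1.58, 1.43 and 3.29 CPM in untreated cells and at 10.02, 14.6 and 9.48 CPM with cisplatin. The groups did not overlap, and the log2 fold change was 2.38 (SE 0.38, edgeR adjusted p = 0.000128). ZNF296, which has 6 fingers and no KRAB core, went from 7.29, 2.29 and 3.29 CPM to 16.15, 27.8 and 20.5 CPM, a log2 fold change of 2.34 (SE 0.43, edgeR adjusted p = 0.000368). ZNF749, a KRAB protein gene, went from 3.49, 1.72 and 1.27 CPM to 13.9, 8.78 and 5.92 CPM, a log2 fold change of 2.13 (SE 0.49, edgeR adjusted p = 0.00215). Every cisplatin library lay above every untreated library for these 3 genes.

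ZNF845 and ZNF701 followed with log2 fold changes of 1.86 (SE 0.64) and 1.66 (SE 0.53). Their edgeR adjusted p values were 0.0248 and 0.0164. ZNF845 was at 0.63, 2.29 and 2.53 CPM in untreated cells and at 3.34, 8.29 and 8.69 CPM with cisplatin, so this rise rests on few reads. The call was lost without cisplatin replicate 2 or 3 and without untreated replicate 1 or 2 for ZNF845, and without cisplatin replicate 2 or untreated replicate 3 for ZNF701. ZNF701 overlaps ZNF808 on the same strand, which had 409 reads to its 113.

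The 20 other members that rose had log2 fold changes of 0.67 to 1.61. They were ZNF101, ZNF114, ZNF155, ZNF224, ZNF304, ZNF317, ZNF333, ZNF461, ZNF526, ZNF550, ZNF551, ZNF552, ZNF574, ZNF576, ZNF580, ZNF581, ZNF584, ZNF614, ZNF616 and ZNF761. ZNF224, a KRAB repressor known to act on the aldolase A gene, was among the more abundant, at 21.5 ± 3.47 CPM in untreated cells and 64.7 ± 40.3 CPM with cisplatin (SD, n = 3).

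The 5 members that fell were ZNF780A, ZNF347, ZNF627, ZNF569 and ZNF787. ZNF780A, a KRAB protein gene, went from 7.92, 8.58 and 9.87 CPM to 2.23, 2.93 and 3.16 CPM, a log2 fold change of -1.63 (SE 0.52, edgeR adjusted p = 0.0164), and its call was lost in 1 of the 15 fits that left out 1 library, the one without untreated replicate 3. ZNF347 went from 5.39, 6.01 and 7.34 CPM to 1.67, 2.44 and 3.16 CPM. Both pairs of groups did not overlap, though at 1.67 to 3.16 CPM the cisplatin libraries are near the floor. The ZNF347 call (log2 fold change -1.32, SE 0.45, edgeR adjusted p = 0.0253) was lost without cisplatin replicate 1 or 2 and without untreated replicate 2 or 3. ZNF627 and ZNF569 had edgeR adjusted p values of 0.0468 and 0.049. In both genes cisplatin replicate 1 was the lowest library, at 0.56 and 16.2 CPM, and without it the log2 fold changes were -0.77 and -0.51. The calls were lost in 11 and 12 of the 15 fits that left out 1 library. ZNF569 went from 76.0 ± 6.79 CPM to 41.4 ± 22.6 CPM (SD, n = 3).

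The upstream stretches of ZNF530 and ZNF749 are shown because both genes are among the largest changes of the set. That of ZNF296, whose rise was larger than that of ZNF749, is not shown. Capitals mark, on either strand, the motifs searched, which were CCGGAAG, the GC box GGGCGG, the TATA box TATAAA, the NRF1 motif and the core of the ZNF143 motif with its middle bases free. The ZNF143 core was chosen after the sequences had been looked at. ZNF530 is shown from chr19:57599635-57599884 and ZNF749 from chr19:57435075-57435324, both on the plus strand of GRCh38.p14.
ZNF530: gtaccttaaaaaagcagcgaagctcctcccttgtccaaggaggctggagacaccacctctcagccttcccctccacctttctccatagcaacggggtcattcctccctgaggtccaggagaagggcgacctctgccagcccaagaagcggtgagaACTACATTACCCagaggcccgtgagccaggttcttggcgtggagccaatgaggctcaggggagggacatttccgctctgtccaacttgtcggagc
ZNF749: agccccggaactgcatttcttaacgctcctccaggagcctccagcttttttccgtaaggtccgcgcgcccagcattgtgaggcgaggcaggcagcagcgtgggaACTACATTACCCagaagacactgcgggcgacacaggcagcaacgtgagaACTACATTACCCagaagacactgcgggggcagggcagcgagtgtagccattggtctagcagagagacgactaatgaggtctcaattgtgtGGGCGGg
The ZNF143 core was present in 51 of the 266 stretches of members, or 19.2%, in 9.03% of 299 stretches of zinc finger genes on other chromosomes, in 2.62% of 1220 stretches of other chromosome 19 genes and in 2.77% of all 21021. CCGGAAG, a core bound by ETS factors, was present in 27.8% of the stretches of members and 23.7% of those of zinc finger genes elsewhere. It was in 11.8% of those of other chromosome 19 genes and 10.8% of all. In the same order, GGGCGG was present in 62.0%, 54.8%, 64.5% and 54.4%, and TATAAA in 2.63%, 5.02%, 6.80% and 8.79%. The motifs were searched in the 250 upstream bases of each RefSeq entry, and 217 members had an entry.

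With cisplatin the median log2 fold change was 0.31 in the 36 tested members with the ZNF143 core and 0.25 in the 92 without it. The share that rose was 13.9% with the core and 18.5% without it. The median was 0.25 in 38 members with CCGGAAG and 0.31 in 90 without it, of which 7.9% and 21.1% rose. The median was 0.29 in 110 members with a KRAB core and 0.43 in 29 without one, of which 17.3% and 20.7% rose. By finger number it was 0.29 in 39 members with up to 9 fingers, 0.40 in 61 with 10 to 14, and 0.25 in 39 with 15 or more. These are descriptions, and no difference between the subgroups was tested.

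Along the chromosome the members fell into 16 runs, separated by more than 1000000 bases between neighbouring starts. The run of 29 members from ZNF565 to ZNF573, which holds ZFP82, had a median log2 fold change of -0.22 with cisplatin over 17 tested members other than ZFP82. The median was 0.70 over 14 in the run from ZNF575 to ZNF296, 0.62 over 18 in the run from ZNF175 to ZNF331 and 0.38 over 42 in the run from ZNF628 to ZNF446. It was 0.10 over 12 in the run from ZNF557 to ZNF846 and 0.11 over 10 in the run from ZNF653 to ZNF791. In the run from ZNF101 to ZNF254 it was 0.49 over 8. Of the 5 members on each side of ZFP82, 9 were tested, namely ZNF30, ZNF792, ZNF146 and ZFP14 before it and ZNF566, ZNF260, ZNF529, ZNF382 and ZNF461 after it. In this group only ZNF461 passed the threshold, rising from 5.07, 2.29 and 5.06 CPM to 12.8, 12.2 and 9.48 CPM (log2 fold change 1.45, SE 0.32, edgeR adjusted p = 0.00175). ZNF566 had a log2 fold change of -0.91 with an edgeR adjusted p of 0.0567, and ZNF146, a gene of fingers with no KRAB domain, was at -0.06.

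**Figure D2:**
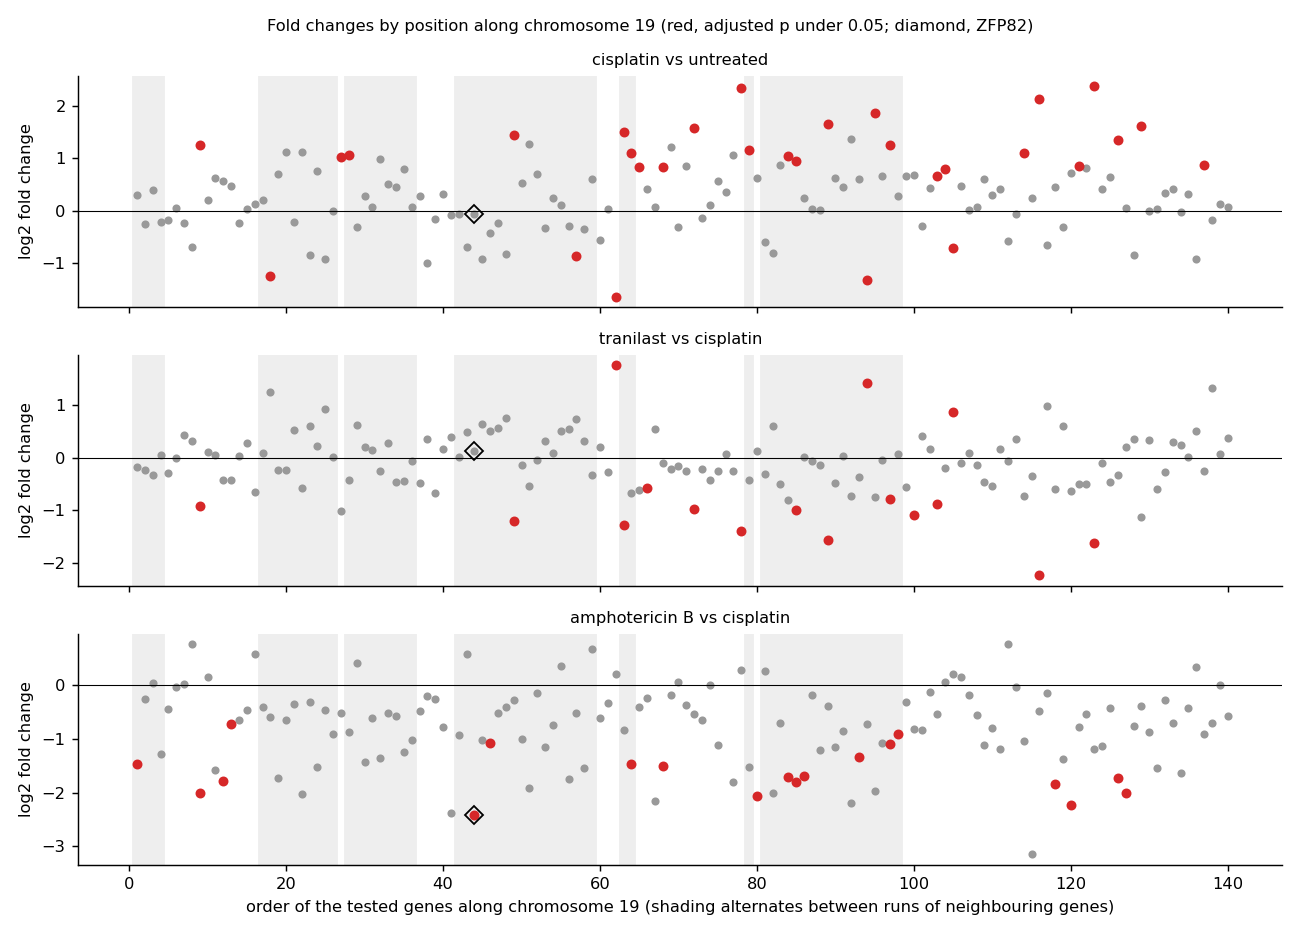
Log2 fold change of the tested members by their order along chromosome 19, for cisplatin against untreated cells, tranilast against cisplatin and amphotericin B against cisplatin. Red points have an adjusted p under 0.05 and the diamond is ZFP82. ZNF285, with no read in the amphotericin B group, is left out of the lowest panel, where most points lie below 0.

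Next, tranilast followed by cisplatin was compared with cisplatin alone, which is the study's own control. Of the 139 members, 13 were lower and 3 higher with tranilast, against 11.6% and 10.5% of all genes, that is 9.35% and 2.16% of the members. The median log2 fold change was -0.11 for the members, 0.02 for all genes, -0.16 for other chromosome 19 genes and 0.09 for zinc finger genes on other chromosomes. With library size as the only scaling the split turned, to 2 lower and 7 higher, or 1.44% and 5.04%, while the median gene moved to 0.46. Of all genes, 3.59% were lower and 23.2% higher with that scaling. On that scale the median of the members less that of all genes was -0.15, against -0.13 with TMM factors. Without cisplatin replicate 1, 20 members were lower and 2 higher, and 10.8% of all genes were lower. Without cisplatin replicate 2, 3 members were lower and none higher. The shares of all genes in that fit are not given here, so this count is not read as a result about the members. This comparison shares its 3 cisplatin libraries with the one before, so the values of both are given side by side only.

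ZNF749 was at 2.22, 1.63 and 2.02 CPM with tranilast, against 13.9, 8.78 and 5.92 CPM with cisplatin alone, a log2 fold change of -2.24 (SE 0.49, edgeR adjusted p = 0.00544). ZNF530 was at 3.70, 4.34 and 2.92 CPM, a log2 fold change of -1.63 (SE 0.36, edgeR adjusted p = 0.00544). Both calls held in all 22 other fits, and the tranilast libraries lay below every cisplatin library. ZNF296 was at 10.4, 7.05 and 7.40 CPM with tranilast (log2 fold change -1.40, SE 0.40, edgeR adjusted p = 0.0194), and the call was lost without cisplatin replicate 2 or tranilast replicate 2 or 3. ZNF461 was at 4.07, 5.42 and 5.16 CPM (log2 fold change -1.20, SE 0.32, edgeR adjusted p = 0.013), and the call was lost without tranilast replicate 1 or 3. ZNF701 had a log2 fold change of -1.57 (SE 0.52, edgeR adjusted p = 0.0384), which did not pass in 7 of the 15 fits that left out 1 library. The other members that were lower were ZNF224, ZNF317, ZNF428, ZNF524, ZNF574, ZNF580, ZNF616 and ZNF761, with log2 fold changes from -1.29 to -0.58.

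The 3 members that were higher with tranilast than with cisplatin were ZNF780A, ZNF347 and ZNF787. ZNF780A was at 11.1, 8.67 and 9.20 CPM (log2 fold change 1.76, SE 0.51, edgeR adjusted p = 0.0217). ZNF347 was at 5.55, 7.32 and 7.18 CPM (log2 fold change 1.42, SE 0.45, edgeR adjusted p = 0.0319). Both genes lay above every cisplatin library. ZNF787, which has 7 fingers and no KRAB core, was at 127, 95.1 and 96.3 CPM against 43.4, 42.4 and 87.3 CPM (log2 fold change 0.86, SE 0.27, edgeR adjusted p = 0.0292). Without cisplatin replicate 2 none of the 3 passed the threshold.

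**Figure D3:**
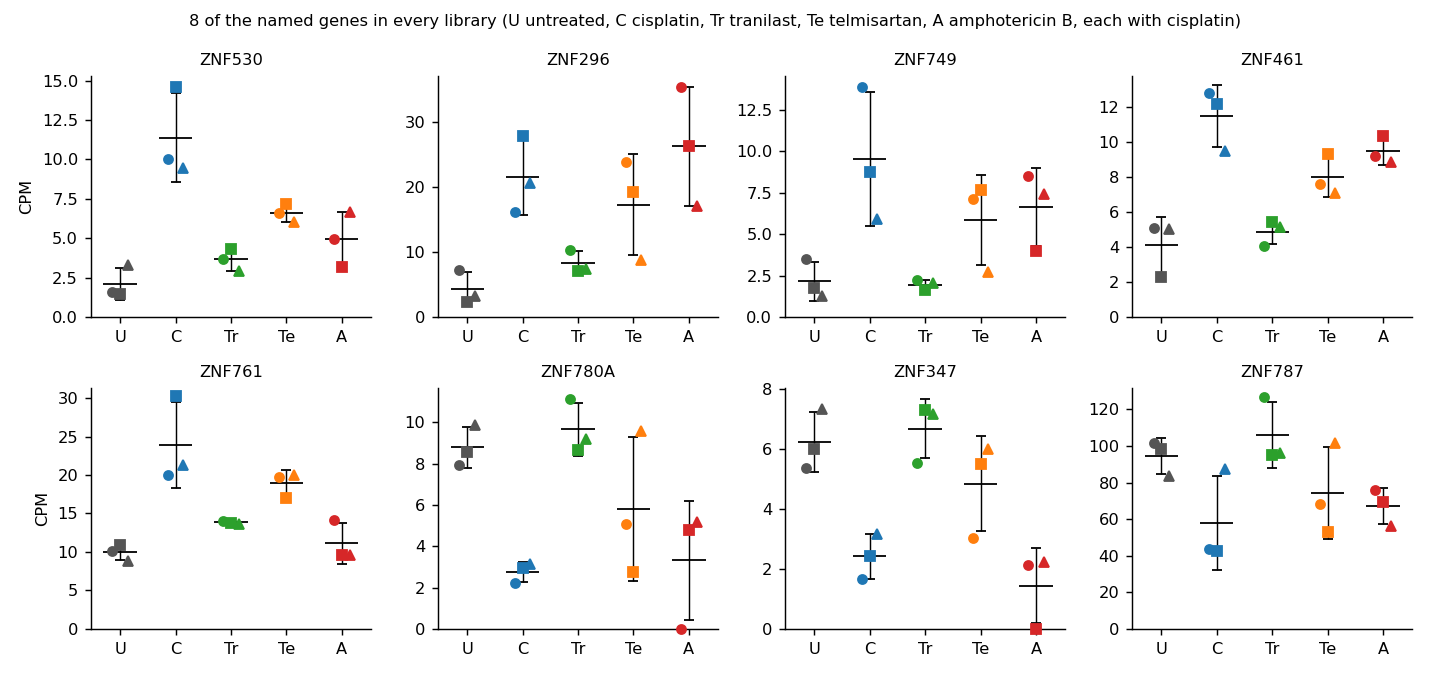
CPM of 8 members in each library of the 5 conditions. Circles, squares and triangles are replicates 1, 2 and 3, and bars are the mean and SD of 3 libraries. In ZNF530, ZNF296, ZNF749, ZNF461 and ZNF761 the cisplatin libraries lie above the untreated and tranilast libraries, and in ZNF780A and ZNF347 they lie below them.

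Against untreated cells, which share no library with the amphotericin B contrast, no member passed the threshold with tranilast, in edgeR or in DESeq2. The members' smallest edgeR adjusted p was 0.0837, in ZNF551, and 5.65% of all genes fell and 2.44% rose. Before adjustment, 0 members were lower and 9 higher (p under 0.05), or 6.47% of the members, against 12.7% and 8.67% of all genes. The median log2 fold change was 0.23 for the members and -0.01 for all genes. It was 0.09 for zinc finger genes on other chromosomes and 0.12 for other chromosome 19 genes. When only the 6 libraries of this comparison were fitted, 21 of 132 members were higher, or 15.9%, where 17.0% of all genes were. Without cisplatin replicate 1 or telmisartan replicate 3, which do not enter the contrast but enter the shared spread, 2 and 1 were. ZNF530 was at a mean of 3.65 ± 0.71 CPM with tranilast and 2.10 ± 1.03 CPM in untreated cells (SD, n = 3).

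Telmisartan followed by cisplatin was then compared with cisplatin alone, and no member passed the threshold in either direction. The share was 0.00% of all genes in both directions, and DESeq2 gave 0 members as well. At an unadjusted p under 0.05, 12 members were lower, or 8.63%, and 0 higher, where 5.33% and 5.02% of all genes were. A negative log2 fold change was found in 71.2% of members and 49.8% of all genes, with medians of -0.20 and 0.00. Of zinc finger genes on other chromosomes 60.45% were negative, with a median of -0.08. Of other chromosome 19 genes 57.25% were, with a median of -0.06. The smallest edgeR adjusted p among members was 0.300, in ZNF585A, with a log2 fold change of -1.68 (SE 0.48). Without cisplatin replicate 1, 4 members were lower, or 2.84%, where 2.15% of all genes were.

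Against untreated cells, 5 members rose and 2 fell with telmisartan, while 12.8% and 15.8% of all genes did so and 3.60% and 1.44% of the members. ZNF296 was at 23.85, 19.2 and 8.76 CPM (log2 fold change 1.98, SE 0.44, edgeR adjusted p = 0.00306) and ZNF530 at 6.60, 7.14 and 6.02 CPM (log2 fold change 1.58, SE 0.40, edgeR adjusted p = 0.00767). Both genes lay above every untreated library, and neither call was lost in any of the 22 other fits. ZNF761, ZNF461 and ZNF581 rose by 0.93, 0.93 and 0.71 on the log2 scale. ZNF761 held in the 15 fits without 1 library, ZNF581 was lost in 5 of them and ZNF461 in 8. ZNF581 overlaps ZNF580 on the same strand, with 1594 and 1637 reads, and ZNF761 overlaps the pseudogene TPM3P9, with 595 and 395 reads, so that reads could be split between them.

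ZNF566, the member next to ZFP82, and ZNF585A were the 2 that fell with telmisartan. ZNF566 was at 37.1, 36.05 and 38.2 CPM in untreated cells and at 10.15, 8.79 and 29.6 CPM with telmisartan (log2 fold change -1.11, SE 0.38, edgeR adjusted p = 0.0335). The low libraries are replicates 1 and 2, the ones with the high mitochondrial share, and the part of that share in the difference was not tested. Without telmisartan replicate 3 the number of members that fell was 12. In that fit the median log2 fold change of all genes was -0.12, against -0.03 with all libraries. The share of all genes that fell in it is not given here, so the count is not read as a result about the members. The ZNF566 call was lost without telmisartan replicate 1 or 2 and without any 1 of the untreated libraries. ZNF585A was at 4.12, 4.005 and 4.56 CPM in untreated cells and at 0.51, 1.10 and 2.46 CPM with telmisartan, near the floor (log2 fold change -1.43, SE 0.47, edgeR adjusted p = 0.0283), and its call was lost without the same 5 libraries. It overlaps ZNF420 on the opposite strand, with 525 reads to its 160.

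**Figure D4:**
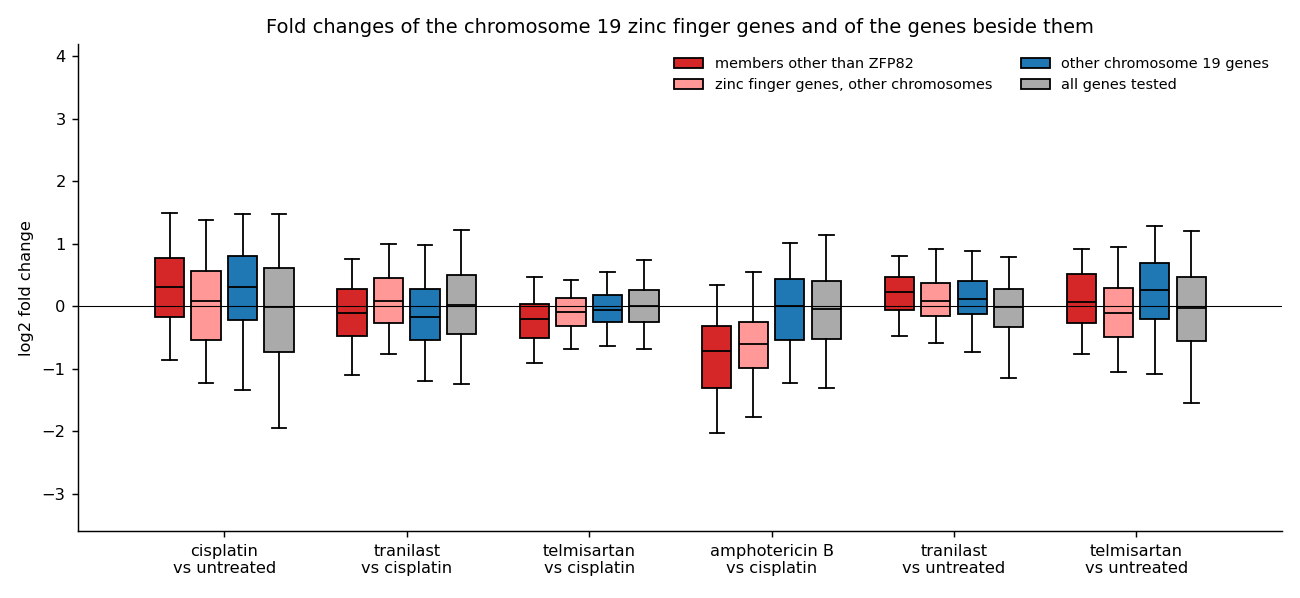
Log2 fold changes in 6 comparisons for the 139 members other than ZFP82, 177 zinc finger genes on other chromosomes, 641 other chromosome 19 genes and all 11113 genes tested. Boxes are quartiles with the median and whiskers the 5th and 95th percentiles. In amphotericin B against cisplatin the members and the other zinc finger genes have medians of -0.71 and -0.61. Amphotericin B against untreated cells is not drawn.

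For amphotericin B against cisplatin the set was chosen on the outcome, and what follows is a description from which nothing is read. Of the 139 members other than ZFP82, 19 were lower and 0 higher at an adjusted p under 0.05, where 9.01% and 4.21% of all genes were. The median log2 fold change was -0.71, and 86.3% of members were negative. It was -0.61, with 84.2% negative, for zinc finger genes on other chromosomes, 0.01 for other chromosome 19 genes and -0.03 for all genes. The count moved with single libraries, to 53 without cisplatin replicate 1, to 3 without cisplatin replicate 2, to 6 without cisplatin replicate 3, to 5 without amphotericin B replicate 3, and to 0 when only the 6 libraries were fitted. Of all genes, 17.2%, 1.43%, 3.20%, 2.62% and 0.717% were lower in these 5 fits. Mitochondrial reads were at 16.4% to 20.7% in these libraries, and their part in the values was not tested.

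Besides ZFP82, the named members of this comparison were ZNF285, ZNF549, ZNF473 and ZNF776. ZNF473, whose protein takes part in the processing of histone pre-mRNA, was at 18.9, 85.4 and 63.6 CPM with cisplatin and at 12.02, 16.75 and 11.9 CPM with amphotericin B. The groups did not overlap, though the lowest cisplatin library was replicate 1, and the log2 difference was -2.06 (SE 0.41). ZNF549 had a log2 difference of -2.23 (SE 0.56) and overlaps ZNF550 on the opposite strand, with 360 and 355 reads. ZNF776 was at 3.898, 7.80 and 12.2 CPM with cisplatin and at 0.71, 3.19 and 2.22 CPM with amphotericin B. ZNF285 had no read in any amphotericin B library and 0.56, 5.36 and 3.55 CPM with cisplatin, so that by the group mean it was at least 1.41-fold lower with amphotericin B, set at a floor of 3 reads per library.

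The neighbours of ZFP82 varied in the same contrast. ZNF792 was at 0.71, 1.60 and 0.00 CPM with amphotericin B and at 0.00, 4.39 and 7.11 CPM with cisplatin, and the groups overlapped. ZNF260 was at 7.78, 7.18 and 3.71 CPM against 9.47, 11.7 and 17.8 CPM, with no overlap. ZFP14, the nearest gene on the other side, was at 0.71, 4.79 and 6.67 CPM against 3.34, 1.95 and 2.76 CPM, with a log2 difference of 0.58. ZNF566, the nearest gene on the opposite side, was at 9.90, 14.35 and 5.19 CPM against 10.02, 20.0 and 28.0 CPM. ZNF461 differed by -0.27. By finger number the median log2 difference was -0.42 in members with up to 9 fingers, -0.91 with 10 to 14 and -0.84 with 15 or more. It was -0.89 in the 36 members with the ZNF143 core and -0.61 in the 92 without it. With CCGGAAG it was -0.53 in 38 members, and without it -0.75 in 90. With a KRAB core it was -0.72 in 110 members, and without one -0.61 in 29.

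Against untreated cells, a comparison added after the data had been seen, 28 of the 139 members were lower and 8 higher with amphotericin B. These are 20.1% and 5.76%, with ZFP82 left out, while 23.3% and 17.7% of all genes were. Of zinc finger genes on other chromosomes, 32.8% were lower and 5.65% higher. The median log2 difference was -0.49 for members, -0.63 for those genes, 0.26 for other chromosome 19 genes and -0.19 for all genes. The set was chosen on these amphotericin B libraries, so this too is a description. ZNF296 was at 35.4, 26.3 and 17.05 CPM with amphotericin B, above every untreated library, with a log2 difference of 2.63 (SE 0.44). ZNF419, which was at 78.6, 73.0 and 84.3 CPM in untreated cells, was at 26.9, 44.7 and 18.5 CPM.

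The 10 members with the most reads per library were ZNF428, ZNF791, ZNF787, ZNF121, ZNF358, ZNF419, ZNF766, ZNF865, ZNF784 and ZNF146. ZNF428, a small protein with 1 finger, ranged from 567.5 to 1119 CPM over the 15 libraries, and its level fell with tranilast against cisplatin from 920 ± 176 to 613 ± 44.9 CPM (SD, n = 3; log2 fold change -0.58, SE 0.20, edgeR adjusted p = 0.0458). ZNF791 ranged from 37.9 to 155 CPM, ZNF121 from 52.6 to 127, ZNF358 from 46.7 to 95.5, ZNF865 from 21.5 to 95.6, ZNF784 from 29.5 to 92.4 and ZNF146 from 26.7 to 81.4 CPM. Apart from ZNF428 and ZNF787, none of the 10 passed the threshold in the 5 comparisons without amphotericin B. The median of the mean levels was 7.70 CPM over the tested members and 22.7 CPM over all genes tested, and 53 members reached 10 CPM.

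Finally, the partners through which KRAB proteins act were examined. Of 19 corepressor genes listed, 18 were tested. With cisplatin, 4 rose and 6 fell, or 22.2% and 33.3%, where 21.1% and 23.6% of all genes did, so the share that rose was near that of all genes. TRIM28, the scaffold that KRAB domains bind, rose from 54.2, 62.7 and 51.4 CPM to 115, 126 and 99.1 CPM (log2 fold change 1.01, SE 0.20, edgeR adjusted p = 0.000757), with no overlap between the groups. CBX1 and CBX3, which encode HP1 proteins that bind methylated histone H3, rose by 0.71 and 0.75 on the log2 scale. DAXX, a chaperone of histone H3.3, rose by 1.71. ATRX, the remodeler that acts with DAXX, fell from 179, 219 and 218 CPM to 93.5, 26.8 and 44.6 CPM (log2 fold change -1.91, SE 0.30, edgeR adjusted p = 9.43e-05). SMARCAD1, a remodeler that binds TRIM28, fell by 1.52 on the log2 scale, ATF7IP, a partner of the methyltransferase SETDB1, by 1.26, FAM208A and PPHLN1, subunits of the HUSH complex, by 0.97 and 0.82, and DNMT1, the maintenance DNA methyltransferase, by 0.60. The calls of TRIM28, ATRX, DAXX, SMARCAD1, FAM208A, PPHLN1 and ATF7IP held in all 22 other fits.

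With tranilast against cisplatin, 5 of the 18 were higher and 2 lower, or 27.8% and 11.1%, where 10.5% and 11.6% of all genes were. SMARCAD1, at 55.5, 56.4 and 61.7 CPM against 16.1, 15.6 and 34.4 CPM, was higher by 1.37 on the log2 scale (SE 0.30, edgeR adjusted p = 0.00544). ATRX, DNMT1, FAM208A and PPHLN1 were higher by 1.09, 0.73, 0.71 and 0.56, and TRIM28 and CBX1 differed by -0.66 and -0.57. The calls of SMARCAD1 and DNMT1 held in all 22 other fits, while those of the other 5 did not hold without cisplatin replicate 2. Against untreated cells, tranilast left 1 call, DAXX, higher by 1.09 on the log2 scale (edgeR adjusted p = 0.0294), and this call was lost in 6 of the 22 other fits. Telmisartan against cisplatin gave none, with 0 lower and 4 higher at an unadjusted p under 0.05, where 5.33% and 5.02% of all genes were. Telmisartan against untreated cells gave 4 higher, TRIM28, CBX1, CBX3 and DAXX, and 3 lower, ATRX, SMARCAD1 and FAM208A, or 22.2% and 16.7%, where 12.8% and 15.8% of all genes were. The calls of TRIM28 and ATRX held in all 22 other fits, DAXX was lost in 1, CBX1 and SMARCAD1 in 5 each, and CBX3 and FAM208A in 6 each. In the described contrast of amphotericin B with cisplatin, HDAC1 and PPHLN1 had log2 differences of 0.50 and 0.70. They make 11.1% higher and 0 lower, where 4.21% and 9.01% of all genes were. The HDAC1 call was lost in 18 of the 22 other fits and the PPHLN1 call in 7.

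**Figure D5:**
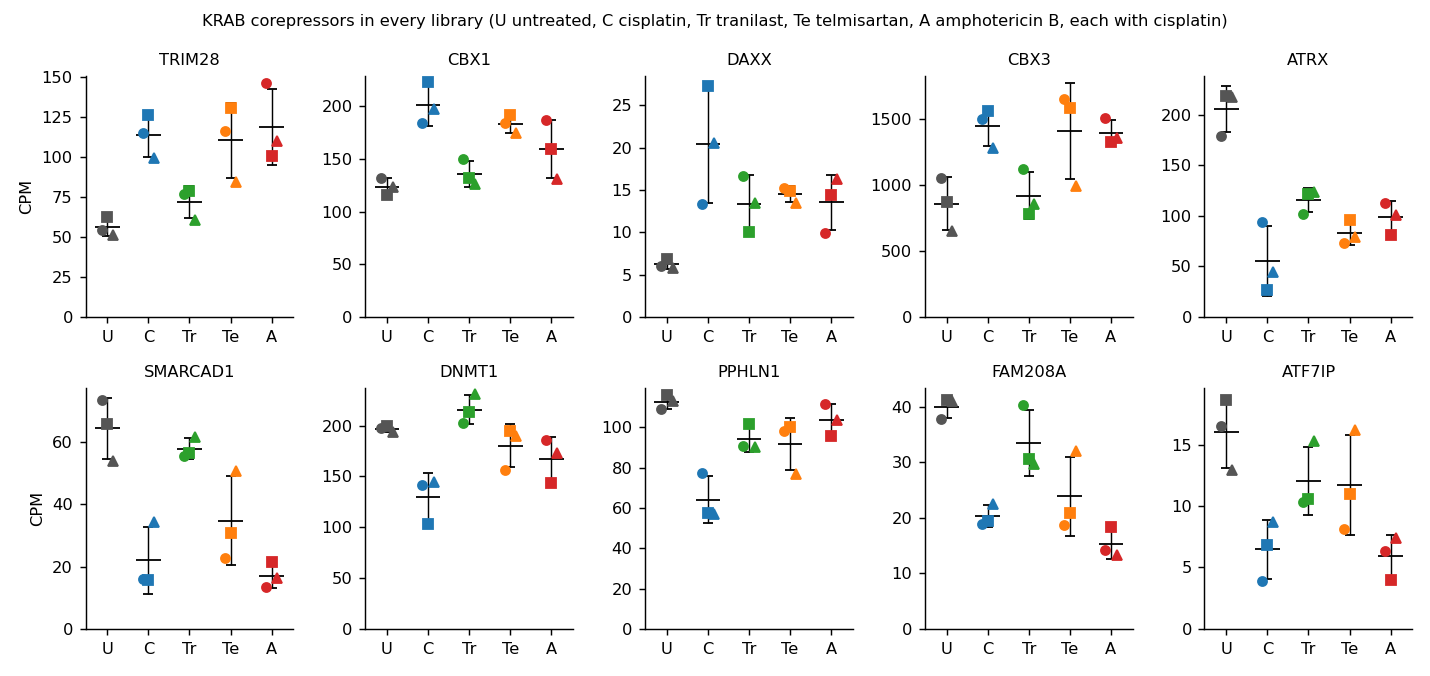
CPM of 10 KRAB corepressor genes in each library of the 5 conditions. Circles, squares and triangles are replicates 1, 2 and 3, and bars are the mean and SD of 3 libraries. TRIM28 lies at 51.4 to 62.7 CPM in untreated cells and at 99.1 to 126 CPM with cisplatin, and ATRX at 179 to 219 and 26.8 to 93.5 CPM.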

How the data were processed

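The deposited tables hold raw counts per Ensembl gene, 1 table per library, which the authors made without normalization. The submitters' processing notes name STAR 2.3.0, HTSeq and hg19. The strand setting is not given in the sources used here, so reads of overlapping genes on opposite strands may not be separated. Names, biotypes, chromosomes and coding sequences came from GENCODE 29 on GRCh38. Upstream stretches came from RefSeq on GRCh38.p14. No protein sequence table was used, so KRAB cores and fingers were counted in translated GENCODE 29 coding sequences. The 2 members not matched in the files were not analysed here.

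Tests used edgeR 4.0.16 in R 4.3.3 (TMM factors, filterByExpr, a quasi-likelihood model of the 5 conditions over all 15 libraries), with Benjamini-Hochberg adjustment over 11113 genes and a threshold of 0.05. A standard error was taken as |log2 fold change| divided by the root of the F statistic, and log2 CPM for overlap used a prior count of 2. DESeq2 1.42.0 served for alternatives, and summaries used Python 3.11.15. The fit was tested on data simulated for tranilast against cisplatin. Of changes of 1 on the log2 scale it found 31 of 93, and of changes of 2 it found 97 of 107. Among the 10870 genes tested there, 7 unchanged genes were called. Members, gene lists and tests were chosen with earlier results of these data known. Genes named are ZFP82, the 10 members with the highest mean CPM, up to 5 risers and 5 fallers per comparison past the threshold with libraries that do not overlap, the 5 neighbours of ZFP82 on each side, and corepressors past the threshold. All 451 stretches of 50 bases in the last 500 bases of a transcript of each named gene were compared with other zinc finger loci, and ZNF461, ZNF285, ZNF845, ZNF761 and ZNF749 shared 20, 12, 32, 18 and 1 of them. P-values measure the spread between libraries labelled as biological replicates. Floors cover counting error only, and standard errors come from the same fit as the p-values.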

Additional observations from a re-analysis of the deposited data

How the results depend on the processing

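Across 22 alternatives, 1138 of 1360 values of the named genes kept their direction and their side of the threshold, 215 kept their direction but lost the call, and 7 changed sign. All 7 were ZFP82 at differences near 0. Leaving out 1 library gave ZFP82 log2 values from -0.19 (without untreated replicate 3) to 0.058 (without cisplatin replicate 3) for cisplatin against untreated cells, with 0.024 without untreated replicate 2. They ran from -0.58 to 0.092 for telmisartan against cisplatin and from -0.64 to 0.028 for telmisartan against untreated cells, the lowest without telmisartan replicate 3 and the highest without replicate 2. They ran from -0.060 to 0.21 for tranilast against untreated cells, with -0.016 and -0.032 without tranilast replicates 2 and 3. Scaling by library size took away 23 calls and the fit of only 6 libraries 16. The median of the members less that of all genes kept its sign in all fits except telmisartan against untreated cells, where leaving out 1 library gave -0.08 to 0.20.

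Counts of members moved by more than 1.5 times as follows. With RLE factors 3 fell with cisplatin, or 2.16% of members, against 22.3% of all genes. With library size only, 7 rose with cisplatin, or 5.04%, against 9.22% of all genes. In tranilast against cisplatin 2 were lower and 7 higher, or 1.44% and 5.04%, against 3.59% and 23.2%. In telmisartan against untreated cells 2 rose, or 1.44%, against 5.68%. In amphotericin B against untreated cells 53 were lower and 1 higher, or 38.1% and 0.719%, against 43.3% and 7.96%. When genes were kept at over 1 CPM in 3 or more libraries, 8 of 178 members were lower with tranilast against cisplatin. That is 4.49%, against 8.01% of all genes. With no filter, 8 of 220 members were lower and 5 higher in that comparison, or 3.64% and 2.27%, against 4.99% and 5.46%. In amphotericin B against cisplatin 39 were lower, or 17.7%, against 5.32% of all genes. In tranilast against untreated cells 2 rose, or 0.909%, against 1.43%. With only 6 libraries, 3 of 118 members fell with cisplatin, or 2.54%, against 22.6% of all genes. In tranilast against cisplatin 5 of 124 were lower, or 4.03%, against 9.32%. In amphotericin B against cisplatin 0 of 83 were lower, against 0.717%. In tranilast against untreated cells 21 of 132 rose, or 15.9%, against 17.0%. In telmisartan against untreated cells 1 of 123 fell and 8 rose, or 0.813% and 6.5%, against 14.6% and 14.5%.

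Leaving out 1 library at a time gave 0 to 10 members lower and 11 to 37 higher for cisplatin against untreated cells, 2 to 20 lower and 0 to 6 higher for tranilast against cisplatin, 0 to 4 lower and 0 higher for telmisartan against cisplatin, 3 to 53 lower and 0 higher for amphotericin B against cisplatin, 0 lower and 0 to 2 higher for tranilast against untreated cells, 0 to 12 lower and 3 to 8 higher for telmisartan against untreated cells, and 12 to 35 lower and 3 to 8 higher for amphotericin B against untreated cells. The extremes for cisplatin came without untreated replicate 3 (0 lower), cisplatin replicate 3 (10 lower), cisplatin replicate 2 (11 higher) and cisplatin replicate 1 (37 higher), and the fewest calls with tranilast against cisplatin came without tranilast replicate 3 (2 lower). The cause was not tested. Shares of all genes moved as well. Without cisplatin replicate 1, 26.2% of members rose with cisplatin, against 20.7% of all genes. In that fit 37.6% of members were lower with amphotericin B against cisplatin, against 17.2%. Without amphotericin B replicate 1, 8.45% of members were lower with amphotericin B against untreated cells, against 17.6%. The other ends are given here as counts only and are not read as results about the members. With the replicate number as a block, 4 members fell with telmisartan against untreated cells, or 2.88%, against 16.8% of all genes. No other count moved by more than 1.5 times. The correlation of same-numbered libraries was over 0.1 in all 3 pairs in none of the comparisons, so the numbers were not taken as pairs. Members tested had a median level of 7.70 CPM, and calls were not tested against level.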
